A study of Mus musculus with 32 samples.

Results

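The 4 mouse Hox clusters were described through every peak that overlapped an mm9 window around Hoxa (chr6:52100000-52220000), Hoxb (chr11:96110000-96230000), Hoxc (chr15:102740000-102870000) or Hoxd (chr2:74490000-74610000). Of 387563 peaks on chromosomes 1 to 19, X and Y in 26 peak lists, 235 overlapped these windows, which span 490 kb in all. They comprised 174 H3K4me3 peaks, 60 RNA polymerase II peaks and 1 Oct4 peak. The windows were drawn by position and not by signal. Hoxb1 to Hoxb13 span 173.9 kb in GRCm38.p6, more than the 120 kb Hoxb window, so that window does not hold the whole cluster, whereas the other clusters span 96.9 to 115.7 kb. Widening each by 10 kb on both sides changed the number of wild-type H3K4me3 peaks from 52 to 54.

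Hox genes encode homeodomain transcription factors that give cells their position along the body axis, and their order in each cluster follows the order in which they are switched on in the embryo. In undifferentiated embryonic stem cells the clusters are known as Polycomb-repressed chromatin in which trimethylation of histone H3 at lysine 4 (H3K4me3), a mark of promoters, occurs together with H3K27me3, a mark that was not analysed here. TAF5L and TAF6L are subunits of SAGA-type complexes, whose acetyltransferases modify residues such as histone H3 lysine 9.

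The study profiled J1 mouse embryonic stem cells, grown in serum and LIF, by chromatin immunoprecipitation sequencing (ChIP-seq). Wild-type cells and the Taf5l-KO and Taf6l-KO knockouts were each profiled once with antibodies to H3K4me3, H3K9ac, total RNA polymerase II (RNAP), polymerase phosphorylated on serine 5 (RNAP-ser5, typical of early transcription) or serine 2 (RNAP-ser2, typical of elongation), Myc and Oct4. A second set captured Flag-Biotin tagged TAF5L or TAF6L on streptavidin in 2 lines each (TAF5L-FB and TAF6L-FB), with BirA cells, labelled wild type, as their control. The labels do not say how many knockout clones were used or how independent the tagged lines are. The lists carry no expression values or gene names, so neither the cell type nor the loss of the targeted genes was checked against markers here. With 1 library per antibody and genotype no difference between genotypes could be tested, and the Clopper-Pearson 95% intervals given below cover counting error only, for neighbouring peaks that are not independent. Both knockouts are set against the same wild-type library.

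Depth differed between libraries. The 21 libraries of the antibody set held 1702363 to 22968606 unique tags, and the 3 H3K4me3 libraries held 15136528 (wild type), 8886529 (Taf5l-KO) and 13041135 (Taf6l-KO). The inputs they were called against held 7771755, 6245652 and 5923469 unique tags in the same order.

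The sequence upstream of Hox genes is rich in CG dinucleotides at many, but not all, of the listed starts, which is shown here because H3K4me3 was the mark with the most peaks in these clusters. RefSeq (GRCm38.p6) lists 39 Hox genes, and 22 of them had a promoter sequence, with 24 starts. The dinucleotide CG, which reads the same on both strands, occurred 2 to 35 times (median 12.5) in the 250 bases before these starts, against a median of 6 over 32851 promoters. At least 10 CG stood in 15 of the 24 (62.5%) and in 37.8% of all promoters. By cluster the starts were 10 in Hoxa, 10 in Hoxd, 3 in Hoxb and 1 in Hoxc, which held 8 CG. Hoxb and Hoxc are thus hardly covered by these values. The richest Hoxa promoter (Hoxa13, encoding a factor of distal limb and hindgut), the richest Hoxd promoter (Hoxd13, encoding a digit patterning factor) and the poorest promoter overall (1 of 2 listed starts of Hoxd11, a gene of the forelimb) are printed 5′ to 3′ with each CG in capitals. They lie at GRCm38.p6 chr6:52260881-52261130 (minus strand), chr2:74667975-74668224 (plus strand) and chr2:74679308-74679557 (plus strand). Their coordinates belong to another build than the peaks, so no peak was placed on them.
Hoxa13: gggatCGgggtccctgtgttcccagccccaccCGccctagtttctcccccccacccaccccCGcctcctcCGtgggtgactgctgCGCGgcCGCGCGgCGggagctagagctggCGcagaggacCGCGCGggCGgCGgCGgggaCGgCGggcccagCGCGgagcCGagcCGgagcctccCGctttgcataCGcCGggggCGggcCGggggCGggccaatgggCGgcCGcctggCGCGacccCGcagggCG
Hoxd13: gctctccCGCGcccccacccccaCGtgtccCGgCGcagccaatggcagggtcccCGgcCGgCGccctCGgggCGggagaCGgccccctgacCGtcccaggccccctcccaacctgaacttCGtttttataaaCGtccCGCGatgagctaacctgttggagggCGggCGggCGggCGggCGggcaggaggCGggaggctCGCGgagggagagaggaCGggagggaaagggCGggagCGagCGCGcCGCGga
Hoxd11: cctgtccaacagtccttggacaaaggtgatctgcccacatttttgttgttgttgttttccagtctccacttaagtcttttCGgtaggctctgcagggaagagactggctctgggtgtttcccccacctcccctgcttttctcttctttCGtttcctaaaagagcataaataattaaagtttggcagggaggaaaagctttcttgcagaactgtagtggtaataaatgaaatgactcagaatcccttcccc
The Hoxa13 stretch holds 35 CG, the Hoxd13 stretch 31 and the Hoxd11 stretch 2.

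H3K4me3 was present along all 4 clusters in every genotype, as a row of separate peaks with bare stretches between them. In wild-type cells 52 peaks covered 47.1 kb, or 9.60% of the windows. The counts by cluster were 12 in Hoxa, 13 in Hoxb, 17 in Hoxc and 10 in Hoxd. Hoxc had the most covered length at 18.5 kb, followed by Hoxa at 11.3 kb, Hoxb at 9.89 kb and Hoxd at 7.37 kb. Every cluster held more covered length before the midpoint of its window than after it (Hoxc 12.1 against 6.44 kb, Hoxd 5.03 against 2.34 kb). In GRCm38.p6 gene order low coordinates lie toward Hoxb13, Hoxc13 and Hoxd13 in those 3 clusters.

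**Figure D1:**
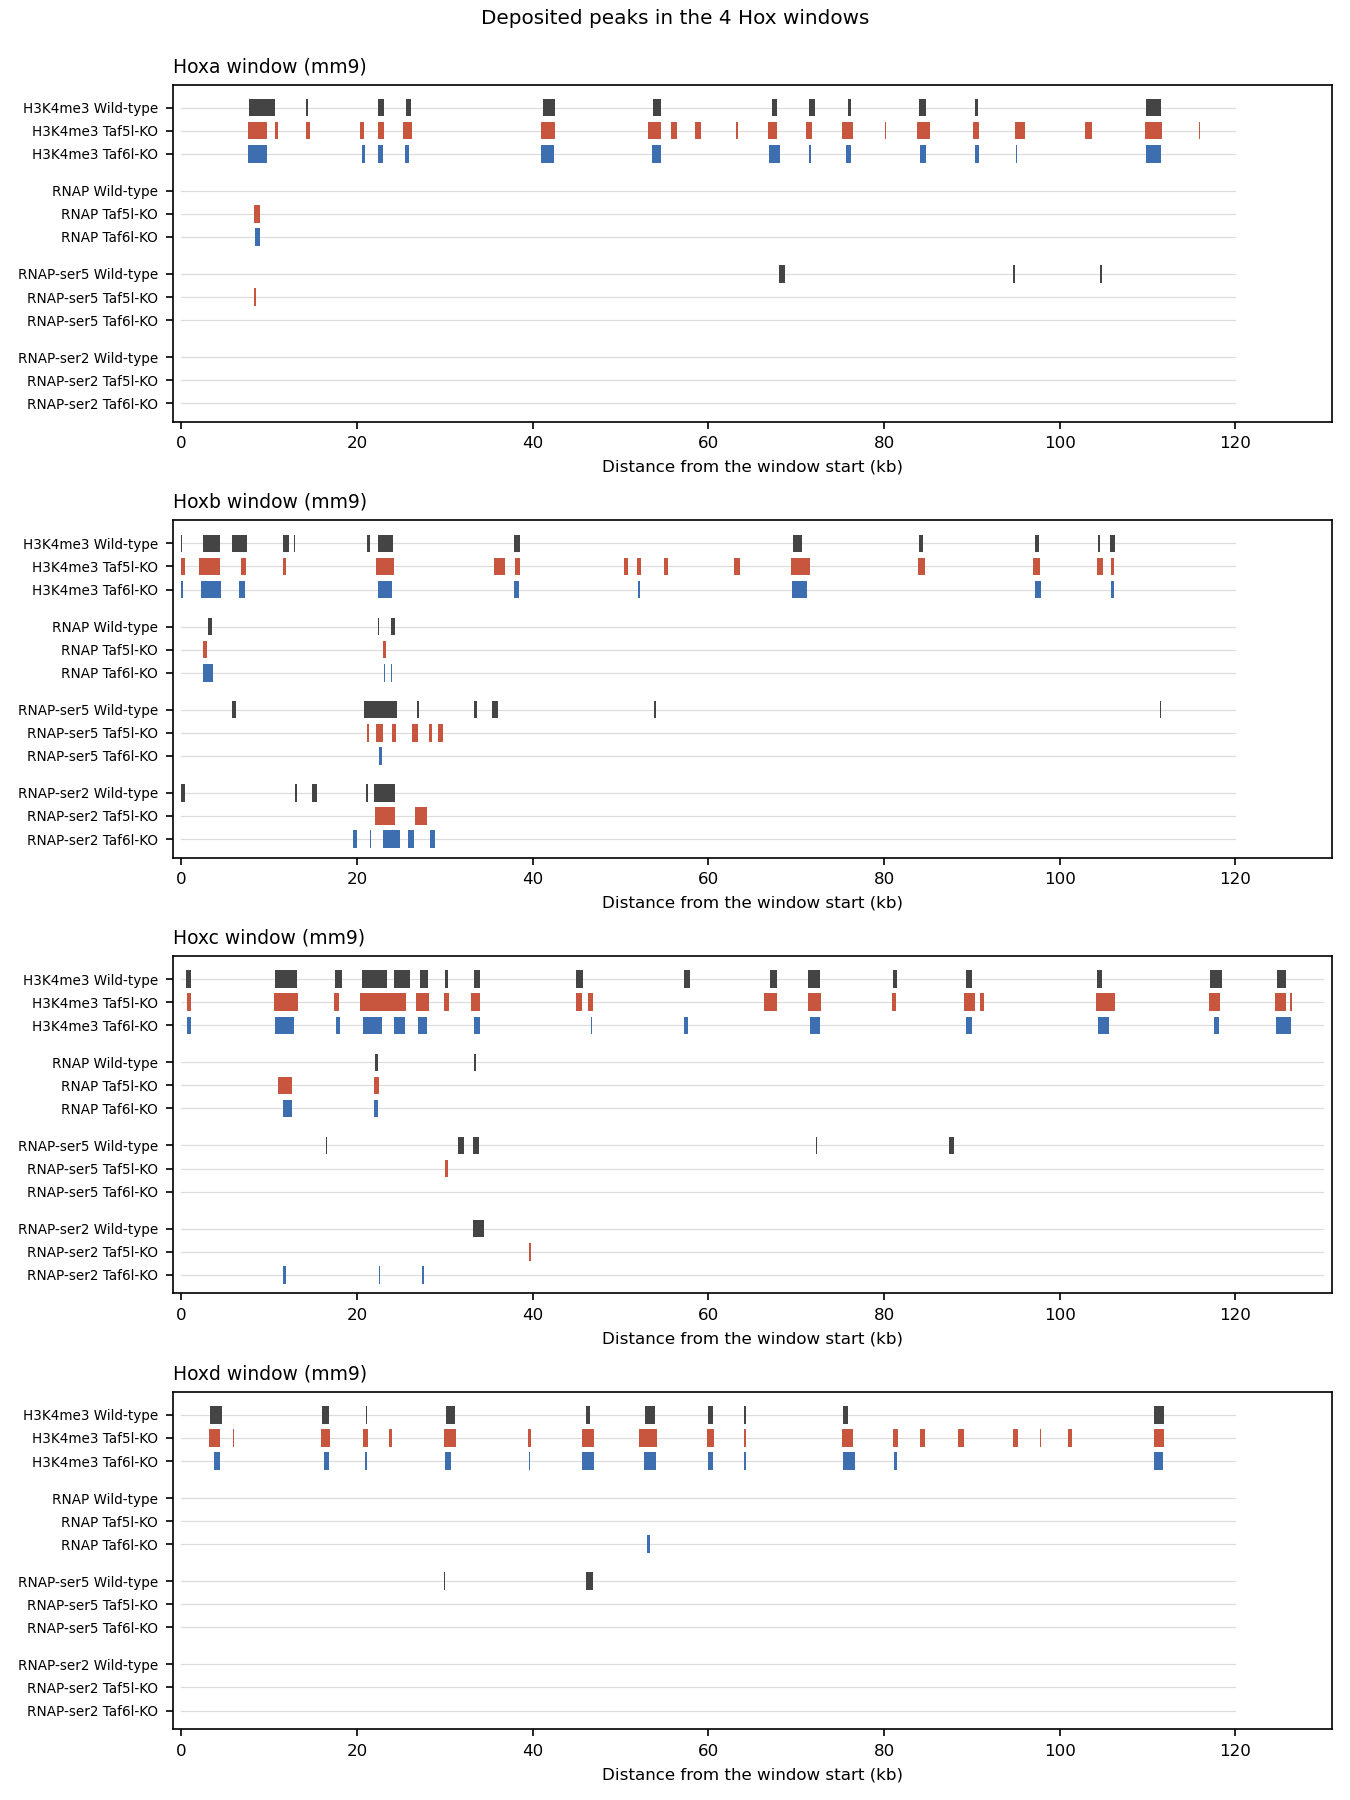
Deposited peaks in the 4 Hox windows, drawn to scale as distance in kb from the mm9 window start, with a line for each of 4 antibodies and 3 genotypes (grey wild type, red Taf5l-KO, blue Taf6l-KO). H3K4me3 peaks run through all 4 clusters, whereas most polymerase peaks lie in the first 40 kb of Hoxb and Hoxc.

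The densest stretch lay in Hoxc, 20 to 30 kb from the window start, where H3K4me3 peaks covered 57.4% of the sequence in wild type, 67.4% in Taf5l-KO and 45.4% in Taf6l-KO. The widest wild-type Hoxc peak (chr15:102760513-102763455, 2943 bp) stood there. In Taf5l-KO cells a single peak of 5200 bp (chr15:102760381-102765580) ran over it and over the next wild-type peak, and in Taf6l-KO cells 2 peaks of 2274 and 1294 bp occupied the same ground. The longest wild-type gaps without H3K4me3 were 34.8 kb in Hoxd and 31.0 kb in Hoxb. Those of Hoxa and Hoxc were 19.1 and 14.2 kb. In Taf5l-KO cells the longest gaps were shorter in Hoxd (10.95 kb), Hoxb (12.3 kb) and Hoxa (14.8 kb) and longer in Hoxc (19.4 kb).

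The Hox H3K4me3 peaks were of modest strength within their own list. Fold enrichment is the peak caller's ratio of ChIP over local background, averaged over the peak in these broad lists, a value of the authors that ranks peaks within 1 list. The wild-type Hox peaks had a median of 4.25 (lowest 3.31, highest 7.45) against 5.57 for the whole list. Only 17 of 52 reached the list median and 0 reached its 90th percentile of 10.6. The corresponding counts were 22 of 74 and 0 in Taf5l-KO and 11 of 48 and 0 in Taf6l-KO. Their median width of 683 bp compared with 788 bp in the list. The knockout median widths of 688 and 674 bp also stood below their lists' 787 and 785 bp.

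Named by width or strength, the leading wild-type H3K4me3 peaks were found in all 3 genotypes. In Hoxa the strongest was chr6:52209822-52211480 (1659 bp, fold enrichment 7.45). It measured 1954 bp in Taf5l-KO and 1639 bp in Taf6l-KO. In Hoxb 1 peak was both widest and strongest (chr11:96112465-96114378, 1914 bp, 7.10), with 2376 and 2284 bp in the knockouts. The strongest Hoxc peak (chr15:102750619-102753202, 2584 bp, 6.93) had counterparts of 2778 bp in Taf5l-KO and 2152 bp in Taf6l-KO. In Hoxd the widest (chr2:74493288-74494613, 1326 bp, 5.81) measured 1154 and 690 bp in the knockouts, and the strongest (chr2:74565327-74565907, 581 bp, 6.65) measured 1248 and 1415 bp.

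In Taf5l-KO cells more of every Hox cluster lay inside H3K4me3 peaks than in wild-type cells. The Taf5l-KO list had 74 Hox peaks over 70.7 kb (14.4% of the windows), and the Taf6l-KO list had 48 over 42.1 kb (8.58%). By cluster, Taf5l-KO cells had 21 peaks and 18.9 kb in Hoxa, 16 and 14.2 kb in Hoxb, 18 and 23.1 kb in Hoxc, and 19 and 14.6 kb in Hoxd. Taf6l-KO cells had 13 peaks and 10.8 kb in Hoxa, 9 and 8.33 kb in Hoxb, 14 and 14.3 kb in Hoxc, and 12 and 8.62 kb in Hoxd. Taf5l-KO was the highest of the 3 libraries in all 4 clusters, while Taf6l-KO stood below wild type in covered length in Hoxa, Hoxb and Hoxc and above it in Hoxd.

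**Figure D2:**
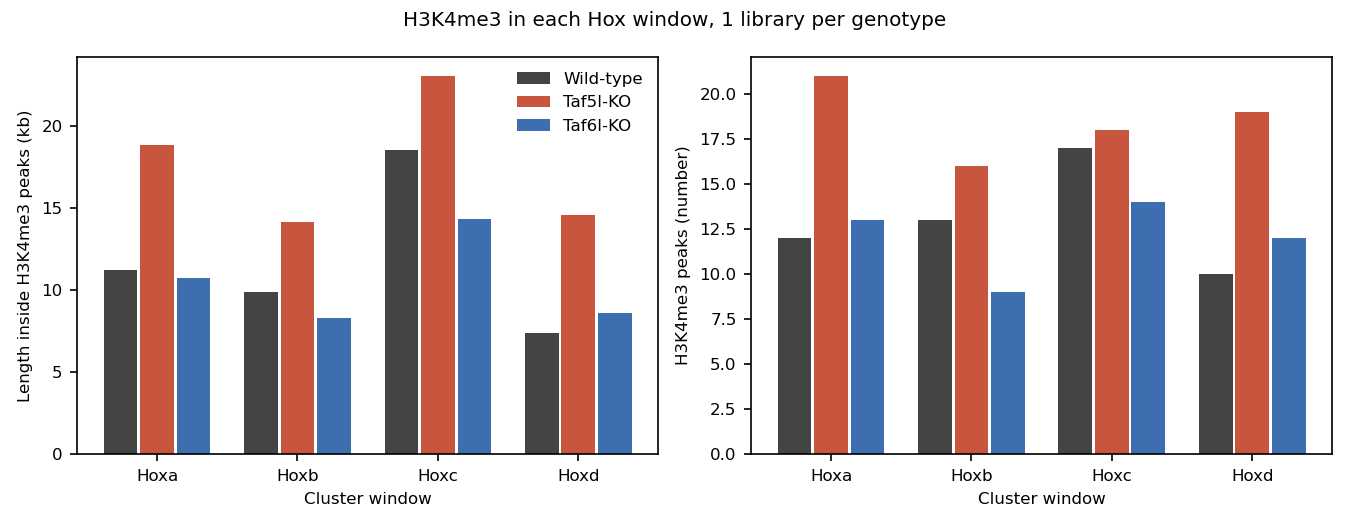
Length inside H3K4me3 peaks in kb (left) and number of H3K4me3 peaks (right) in each Hox window, with 1 bar per genotype and no error bars because each bar is 1 library. The Taf5l-KO bar is the tallest in every window, from 14.2 kb in Hoxb to 23.1 kb in Hoxc.

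The ratio of covered length, Taf5l-KO over wild type, was 1.50 over the 4 windows. It was 1.98 in Hoxd, 1.68 in Hoxa, 1.43 in Hoxb and 1.24 in Hoxc. Over all chromosomes the same ratio was 0.951, and in flanks of 1 window length on each side of each window it was 1.36 (15.4 kb in wild type, 20.9 kb in Taf5l-KO). The flanks therefore stood nearer to the clusters than to the genome. The Taf6l-KO ratio was 0.894 over the windows, 1.03 in the flanks and 0.842 over all chromosomes, with 1.17 in Hoxd, 0.956 in Hoxa, 0.842 in Hoxb and 0.773 in Hoxc. With peaks of −log10 q of at least 5 alone, the Taf5l-KO ratio over the windows was 1.78 and the Taf6l-KO ratio 1.05. The ratios over all chromosomes at that cut were not calculated. Outside the windows 17355 wild-type, 19882 Taf5l-KO and 18162 Taf6l-KO peaks passed it. The Taf5l-KO library had the fewest unique tags of the 3 and the lowest share of duplicates (17.1%, against 36.6% in wild type and 28.0% in Taf6l-KO). Scaled to the smaller of ChIP and input, the libraries stood at 7771755 (wild type), 6245652 (Taf5l-KO) and 5923469 tags (Taf6l-KO). The part of depth in these ratios was not tested.

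**Figure D3:**
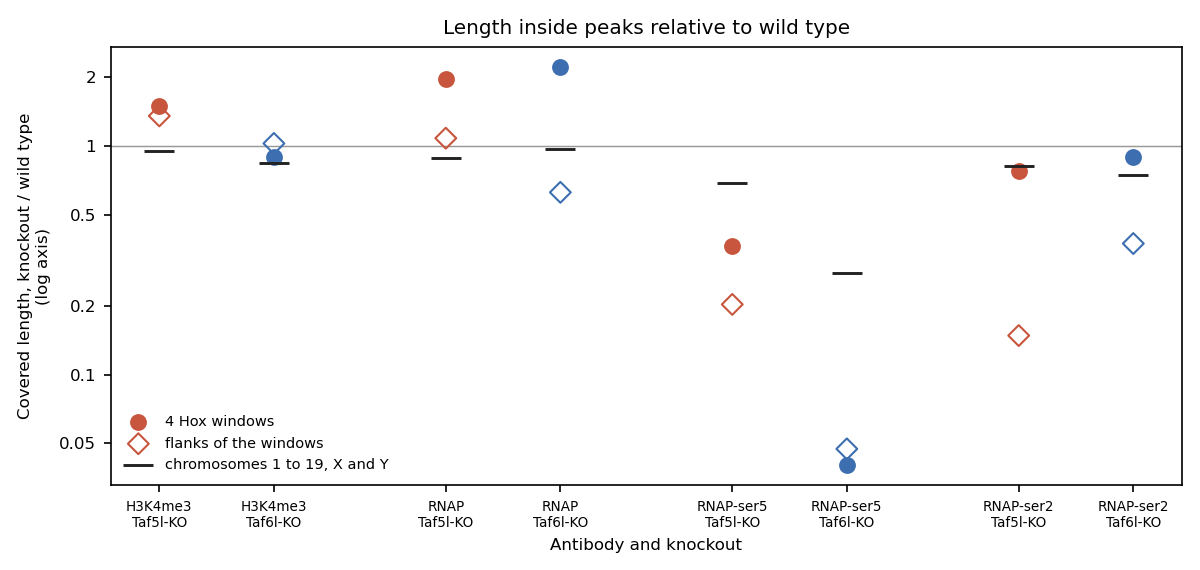
Covered length in each knockout divided by that in wild type (log axis) for 4 antibodies, in the 4 Hox windows (filled circles), their flanks (open diamonds) and chromosomes 1 to 19, X and Y (dashes), each from 1 library per genotype. For H3K4me3 in Taf5l-KO the circle is at 1.50 and the dash at 0.951, and for RNAP-ser5 in Taf6l-KO the circle is at 0.0402 and the dash at 0.278.

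Most of the wild-type Hox H3K4me3 peaks were found again in the knockouts, and the Taf5l-KO list added further ones. A Taf5l-KO peak overlapped 49 of 52 wild-type Hox peaks (94.2%, interval 84.1 to 98.8%), against 84.6% over the whole list. A Taf6l-KO peak overlapped 42 of 52 (80.8%, interval 67.5 to 90.4%), against 80.8% over the list. In the other direction wild-type peaks overlapped 49 of 74 Taf5l-KO Hox peaks (66.2%, interval 54.3 to 76.8%), which lay below the 85.8% of the whole Taf5l-KO list. Only 22 of these 74 reached that list's median fold enrichment, and shares in this direction were not divided by strength. For Taf6l-KO the share was 42 of 48 (87.5%, interval 74.8 to 95.3%), against 89.5%. Taf6l-KO peaks overlapped 47 of the 74 Taf5l-KO Hox peaks (63.5%, interval 51.5 to 74.4%), against 83.5%.

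Most peaks kept in Taf5l-KO were also wider there, by the summed full width of all overlapping knockout peaks over the wild-type width. Of 49 kept peaks 38 were wider in Taf5l-KO by this measure, where 49.9% of kept peaks were over the list. The median width ratio was 1.28 against 1 over the list. A knockout peak over several wild-type peaks, such as the 5200 bp Taf5l-KO peak in Hoxc, counted in full for each of them. In Taf6l-KO 18 of 42 were wider (38% over the list), with a median ratio of 0.974 against 0.938. The Hox peaks were mostly below the list's median strength. A division by strength was therefore added after the data had been seen. Among the 35 wild-type Hox peaks below the list's median fold enrichment, 32 were overlapped in Taf5l-KO (91.4%, interval 76.9 to 98.2%), against 69.4% of all peaks below that median. In Taf6l-KO 25 of these 35 were overlapped (71.4%, interval 53.7 to 85.4%), against 62% of all. All 17 of the stronger Hox peaks were overlapped in both knockouts, as were 99.7% and 99.6% of the stronger peaks of the list.

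Joining overlapping H3K4me3 peaks of the 3 genotypes gave 75 Hox regions, each in 1 or more genotypes. Of these, 40 were present in all 3 genotypes (53.3%, against 65.8% of all 38111 joined regions). A further 18 were in Taf5l-KO alone (24% of the Hox regions, against 7.76%), 6 in both knockouts without wild type (4.08% over all), 8 in wild type and Taf5l-KO (5.57% over all), 1 in wild type and Taf6l-KO (2.49% over all) and 2 in wild type alone (10.5% over all). No Hox region was in Taf6l-KO alone, a class that held 3.83% of all regions. Altogether 72 of the 75 carried a Taf5l-KO peak, against 83.2% over all regions. The joined regions were not divided by strength, and most Hox peaks stood below the median fold enrichment of their list.

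**Figure D4:**
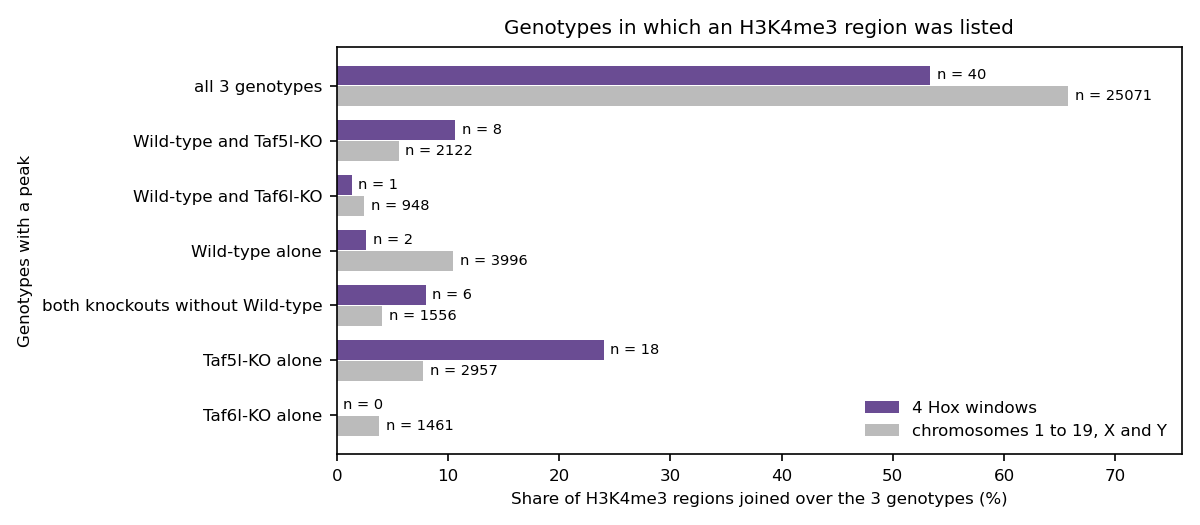
Share in percent of H3K4me3 regions, joined over the 3 genotypes, by the genotypes that listed a peak there, in the 4 Hox windows (purple, 75 regions) and on chromosomes 1 to 19, X and Y (grey, 38111 regions). The class in Taf5l-KO alone holds 24% of the Hox regions and 7.76% of all regions.

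The regions in Taf5l-KO alone were 7 in Hoxd, 6 in Hoxa, 4 in Hoxb and 1 in Hoxc. In Hoxd 5 of the 7 lay beyond the strongest wild-type peak, in the stretch of 34.8 kb that held no wild-type H3K4me3. The strongest Taf5l-KO peak without wild-type overlap in each cluster was chr2:74570985-74571575 in Hoxd (fold enrichment 6.28, 49.9th percentile of its list), chr6:52202894-52203728 in Hoxa (4.81), chr15:102786317-102786882 in Hoxc (4.48) and chr11:96160414-96160819 in Hoxb (4.46). Of this set the Hoxd and Hoxc peaks had Taf6l-KO counterparts, chr2:74571171-74571528 (358 bp) and chr15:102786628-102786756. The Taf6l-KO peaks without wild-type overlap were few and weak, 2 in Hoxa, 1 in Hoxb, 1 in Hoxc and 2 in Hoxd. Their strongest members were chr6:52120578-52120872 (3.49), chr11:96161982-96162197 (3.30), chr15:102786628-102786756 (3.34) and chr2:74529537-74529721 (4.19).

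H3K9ac and the transcription factors were almost absent from the clusters' lists. H3K9ac, an acetylation mark of active promoters, had 0 Hox peaks in all 3 genotypes, from lists of 4131 (wild type), 110 (Taf5l-KO) and 898 peaks (Taf6l-KO). Myc, a factor of growth genes, had 0 in all 3 genotypes, from lists of 538, 34 and 23. Oct4, the pluripotency factor encoded by Pou5f1, had 1, in Taf6l-KO Hoxb at chr11:96226838-96226960 (fold enrichment 8.49), from lists of 2564, 3034 and 2049. Both TAF5L-FB lines, both TAF6L-FB lines and the BirA control had 0, from lists of 7 to 1140 peaks. The short lists limit what an empty window shows for these targets.

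In wild-type cells a smaller share of the Hox H3K4me3 peaks carried another mark than of the whole H3K4me3 list. None of the 52 overlapped an H3K9ac peak, which allows a share of up to 5.77% by the limit of 3 counts (6.85% by the Clopper-Pearson interval), against 12.2% of the wild-type list. The share was 60.0% in the widest 5% of peaks outside the windows. Those had a width cut of 2903 bp, far above the Hox median of 683 bp, so they are not matched to the Hox peaks. RNAP overlapped 4 of 52 (7.69%, interval 2.14 to 18.5%), against 48.5% of the list. RNAP-ser5 overlapped 6 (11.5%, interval 4.35 to 23.4%), against 25.9%, and RNAP-ser2 overlapped 5 (9.62%, interval 3.20 to 21.0%), against 34.4%. At least 1 of the 3 polymerase forms overlapped 10 of 52 (19.2%, interval 9.63 to 32.5%), against 54.3%. Each of these intervals ended below the share of the list. The flanks of the windows had low shares too: of their 21 wild-type H3K4me3 peaks, 0 overlapped H3K9ac, RNAP-ser5 or RNAP-ser2 and 3 overlapped RNAP (14.3%, interval 3.05 to 36.3%). Among the 18 Hox peaks with −log10 q of at least 5, 0 overlapped H3K9ac (interval 0 to 18.5%), against 22.0% of such peaks outside the windows. Because the windows held no H3K9ac peak, this 0 follows from the 0 of 52 and adds no check. Of these 18, 4 carried a polymerase form (22.2%, interval 6.41 to 47.6%), against 75.3% of such peaks outside the windows. No wild-type polymerase peak in the windows reached −log10 q of 5, so with that minimum in both lists every such share was 0%. Over at least 50% of their length 0% of the 52 Hox peaks were covered by RNAP, 7.69% by RNAP-ser5 and 5.77% by RNAP-ser2. The shares of the list under that rule were not calculated, so these values do not set the Hox peaks apart. Over the whole wild-type lists the median width was 479 bp for RNAP and 788 bp for H3K4me3.

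**Figure D5:**
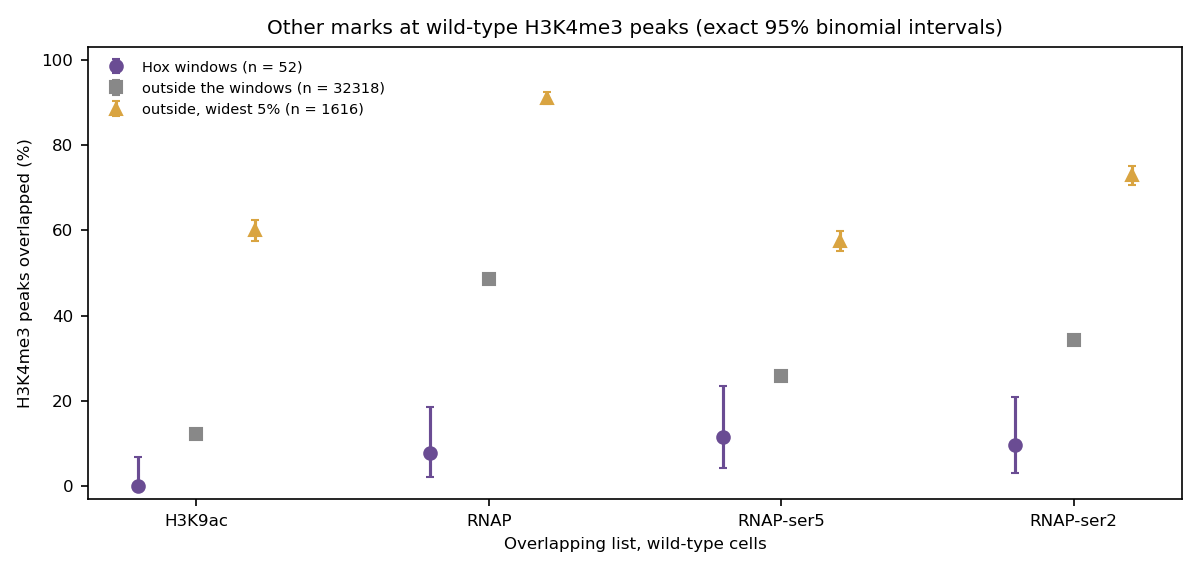
Percent of wild-type H3K4me3 peaks that overlap a wild-type peak of H3K9ac, RNAP, RNAP-ser5 or RNAP-ser2, for the Hox windows (circles, 52 peaks), all peaks outside them (squares, 32318) and the widest 5% outside them (triangles, 1616), with Clopper-Pearson 95% intervals that cover counting error only. The Hox shares run from 0 to 11.5%, below both other sets for each list. The widest 5% have a width cut of 2903 bp, against a Hox median of 683 bp.

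The polymerase shares at Hox H3K4me3 peaks were below those of the list in the knockouts too. H3K9ac overlapped 0 of 74 Taf5l-KO and 0 of 48 Taf6l-KO Hox H3K4me3 peaks, where it overlapped 0.333% and 2.97% of the 2 lists. RNAP-ser5 overlapped 3 of 74 (4.05%) in Taf5l-KO and 1 of 48 (2.08%) in Taf6l-KO, against 25.8% and 27.4%. RNAP-ser2 overlapped 1 of 74 (1.35%) and 4 of 48 (8.33%), against 32.5% and 48.4%. RNAP overlapped 5 of 74 Taf5l-KO Hox H3K4me3 peaks (6.76%, interval 2.23 to 15.1%), against 44.5% of that list, and 6 of 48 in Taf6l-KO (12.5%, interval 4.73 to 25.2%), against 58.5%. At least 1 polymerase form overlapped 6 of 74 in Taf5l-KO (8.11%, interval 3.03 to 16.8%), against 49.3%, and 7 of 48 in Taf6l-KO (14.6%, interval 6.07 to 27.8%), against 63.5%. The knockout peaks without wild-type overlap were looked at for polymerase after the data had been seen. Of the 25 such Hox H3K4me3 peaks in Taf5l-KO, 0 overlapped a polymerase peak of the same cells, which allows a share of up to 12% by the limit of 3 counts (13.7% by the Clopper-Pearson interval), against 11.1% of the 4563 such peaks of the list. The 6 Taf6l-KO peaks of this kind had 0 as well, against 20%. A count of 0 at these numbers does not set the Hox peaks apart from the other peaks without wild-type overlap.

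The longer H3K4me3 in Taf5l-KO was seen at Hox regions with and without polymerase, in a division also added after the data had been seen. The 62 Hox regions without any wild-type polymerase peak had a Taf5l-KO to wild-type length ratio of 1.63 (32.4 kb in wild type, 52.9 kb in Taf5l-KO), and the 13 with one had 1.23 (14.7 and 18.0 kb). Regions elsewhere had ratios of 1.01 without and 0.925 with wild-type polymerase. In Taf5l-KO alone were 17 of the 62 Hox regions without polymerase (27.4%), against 13.3% of such regions elsewhere, and 1 of the 13 with polymerase (7.69%), against 1.79%. The Taf6l-KO ratios were 0.888 and 0.904 at the Hox regions and 0.825 and 0.849 elsewhere, in the same order.

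Polymerase peaks in the clusters were few in number, and the number to be expected from the length of the windows was not calculated. The RNAP lists had 5 Hox peaks in wild type (1.80 kb), 5 in Taf5l-KO (3.56 kb) and 7 in Taf6l-KO (4.01 kb). They made up 0.0170%, 0.0243% and 0.0262% of the 3 RNAP lists. All 17 lay on an H3K4me3 peak of the same genotype, where 55.2%, 71.1% and 66.1% of RNAP peaks did over the 3 lists. All 17 lay before the midpoint of their window. The wild-type peaks were chr11:96113044-96113532, chr11:96132356-96132524 and chr11:96133819-96134353 in Hoxb and chr15:102762032-102762422 and chr15:102773360-102773577 in Hoxc, with fold enrichments of 3.40 to 5.22. Hoxa and Hoxd held none in wild type.

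Both knockouts listed RNAP in Hoxc under the strongest wild-type H3K4me3 peak, where the wild-type list did not. The peaks were chr15:102751024-102752588 in Taf5l-KO (fold enrichment 3.98) and chr15:102751592-102752609 in Taf6l-KO (4.90). In Hoxc all 3 genotypes shared RNAP at chr15:102762032-102762422 (wild type), chr15:102761939-102762466 (Taf5l-KO) and chr15:102761916-102762335 (Taf6l-KO). The Hoxb peaks of the knockouts were chr11:96112447-96112880 and chr11:96132940-96133256 in Taf5l-KO, and chr11:96112417-96113570, chr11:96133027-96133220 and chr11:96133844-96133977 in Taf6l-KO. Taf6l-KO alone had a Hoxd peak, at chr2:74542970-74543394 (4.12).

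Wild-type Hox RNAP peaks were too few to rank the knockouts by the share of peaks kept. A Taf5l-KO peak overlapped 1 of 5 wild-type Hox RNAP peaks (52.5% over the list), and a Taf6l-KO peak overlapped 3 of 5 (60.4% over the list). In the other direction wild-type peaks overlapped 1 of 5 in Taf5l-KO (72.7% over the list) and 3 of 7 in Taf6l-KO (66.8% over the list). All 5 Taf5l-KO peaks were overlapped by a Taf6l-KO peak, against 81.9% over the list. Counting a Taf5l-KO peak within 1000 bp raised the share of the 5 wild-type RNAP peaks kept from 20% to 80%. The Taf6l-KO share rose from 60% to the same 80% under that rule. The wild-type peaks chr11:96132356-96132524 and chr11:96133819-96134353 both came near the same Taf5l-KO peak, chr11:96132940-96133256. The shares of the list under that rule were not calculated. The intervals of these shares are wide, from 0.505 to 71.6% for 1 of 5, 14.7 to 94.7% for 3 of 5 and 47.8 to 100% for 5 of 5. Wild-type RNAP had fewer unique tags (5174150) than Taf5l-KO (15865460) or Taf6l-KO (7236644). Scaled to the smaller of ChIP and input, they stood at 5174150, 6245652 and 5923469 tags. The covered length ratios in the windows were 1.97 in Taf5l-KO and 2.23 in Taf6l-KO. Over all chromosomes they were 0.888 and 0.969, and in the flanks 1.08 and 0.628. These ratios came from libraries of unlike depth, whose part was not tested.

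RNAP-ser5 was the most frequent polymerase form at the clusters in wild-type cells, with 17 peaks over 9.86 kb. The counts were 3 in Hoxa, 7 in Hoxb, 5 in Hoxc and 2 in Hoxd. Most of the length lay in Hoxb, where the widest peak ran over 3730 bp at chr11:96130824-96134553 (fold enrichment 4.07) and the strongest stood at chr11:96136871-96137022 (4.39). Outside Hoxb the widest wild-type peaks were chr6:52168082-52168722 in Hoxa, chr15:102773249-102773925 in Hoxc, which was also the strongest there, and chr2:74536114-74536843 in Hoxd. The strongest were chr6:52204622-52204762 in Hoxa (3.62) and chr2:74519864-74520004 in Hoxd (4.05). The remaining wild-type peaks of these clusters were chr6:52194701-52194908 in Hoxa and chr15:102756428-102756568, chr15:102771489-102772133, chr15:102812222-102812362 and chr15:102827406-102827935 in Hoxc, with fold enrichments of 3.10 to 3.48. On wild-type H3K4me3 lay 5 of the 17 (29.4%, interval 10.3 to 56.0%), against 19.4% over the list. The wild-type RNAP-ser5 list was also the longest, with 45366 peaks against 29370 (RNAP) and 43039 (RNAP-ser2), from a library of 87.8% duplicates. As a share of their lists the Hox peaks made up 0.0375%, 0.0170% and 0.0139% in that order. All 17 calls were weak, and the strongest had a −log10 q of 2.84.

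Fewer RNAP-ser5 peaks were listed in the knockouts, in the windows and in the whole lists. Taf5l-KO had 8 over 3.60 kb, 6 of them in Hoxb, and Taf6l-KO had 1 over 0.396 kb (chr11:96132478-96132873). The Hox peaks made up 0.0375% of the wild-type list of 45366, 0.0361% of the Taf5l-KO list of 22190 and 0.00588% of the Taf6l-KO list of 17000. The Taf5l-KO peak in Hoxc was chr15:102769990-102770382 (3.56), and its strongest Hoxb peak without wild-type overlap was chr11:96139256-96139837 (4.74). The length ratios were 0.365 and 0.0402, where all chromosomes gave 0.690 and 0.278 and the flanks gave 0.203 and 0.0473, lower than the windows in Taf5l-KO and in Taf6l-KO slightly higher. A Taf5l-KO peak overlapped 2 of 17 wild-type peaks (26.2% over the list) and a Taf6l-KO peak overlapped 1 of 17 (16.5% over the list). In the other direction wild-type peaks overlapped 4 of 8 Taf5l-KO peaks (51.7% over the list) and the 1 Taf6l-KO peak (47.4% over the list), and that Taf6l-KO peak overlapped 1 of the 8 in Taf5l-KO (27.3% over the list). On H3K4me3 of their own genotype lay 4 of the 8 Taf5l-KO peaks (39.1% over the list) and the Taf6l-KO peak (48.4% over the list). The Taf6l-KO RNAP-ser5 library was the shallowest of the 21, with 1702363 unique tags and 92.6% duplicates. Wild type had 3871824 and Taf5l-KO 8807133, which was scaled to its input's 6245652. The part of depth in these counts was not tested.

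RNAP-ser2 was listed in Hoxb and Hoxc and had 0 peaks in Hoxa and Hoxd in every genotype. Wild type had 6 peaks over 4.93 kb, Taf5l-KO had 3 over 3.84 kb and Taf6l-KO had 8 over 4.40 kb. They made up 0.0139%, 0.0095% and 0.0188% of the 3 RNAP-ser2 lists. One stretch of Hoxb, about 21 to 25 kb from the window start, held the widest RNAP-ser2 peak in each genotype. It was 2423 bp in wild type (chr11:96131945-96134367, fold enrichment 3.77), 2218 bp in Taf5l-KO (chr11:96132048-96134265, 3.79) and 1980 bp in Taf6l-KO (chr11:96132945-96134924, 4.74). RNAP and RNAP-ser5 peaks of all 3 genotypes fell on this stretch too, as did H3K4me3. It was the single place in the 4 clusters at which all 4 of these lists had peaks in every genotype.

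The other RNAP-ser2 peaks did not recur between lists. The Hoxc peaks were chr15:102773253-102774404 in wild type (1152 bp, 3.65), chr15:102779595-102779847 in Taf5l-KO (3.44), and chr15:102751592-102751873, chr15:102762454-102762586 and chr15:102767447-102767579 in Taf6l-KO (3.10, 3.29 and 3.22). The strongest wild-type Hoxb peak was chr11:96122937-96123113 (3.81), and 3 more stood at chr11:96109949-96110400, which crosses the window edge, chr11:96124832-96125387 and chr11:96131048-96131266. Taf5l-KO added chr11:96136572-96137937 (1366 bp, 3.54) and Taf6l-KO added chr11:96138320-96138908 (4.52) in Hoxb, with weaker peaks at chr11:96129556-96130023, chr11:96131423-96131555 and chr11:96135788-96136468. A Taf5l-KO peak overlapped 1 of 6 wild-type peaks (36.6% over the list), and so did a Taf6l-KO peak (38.7% over the list). Wild-type peaks overlapped 1 of 3 in Taf5l-KO (50.2% over the list) and 1 of 8 in Taf6l-KO (43.3% over the list), and 1 of the 3 Taf5l-KO peaks met a Taf6l-KO peak (47.5% over the list). H3K4me3 lay under 5 of 6 wild-type peaks (26.9% over the list), 1 of 3 in Taf5l-KO (34.3%) and 4 of 8 in Taf6l-KO (34.9%). Covered length was 0.779 (Taf5l-KO) and 0.893 times (Taf6l-KO) that of wild type, against 0.815 and 0.750 over all chromosomes. In the flanks the ratios were 0.148 and 0.375, from 8 peaks in wild type, 2 in Taf5l-KO and 7 in Taf6l-KO. Counted in 1000 bp bins, the Taf6l-KO value in the windows was 1.09.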

How the data were processed

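ChIP-seq peak lists of 26 libraries were used. Input depths were read from the list headers, and the 6 labelled input samples include none of a knockout. The submitters' processing notes name Bowtie2 2.3.2, deepTools 2.5.3 and the mm9 build. MACS2 2.1.1.20160309 called each library against an input, per the file headers, keeping 1 tag at each position, with a cutoff of 0.05 on q and broad calling (second cutoff 0.1) for histone marks and polymerase. The larger of ChIP and input was scaled to the smaller, so depth sets what could be called. The deposited values are pileup signal, −log10 p and −log10 q, and the fold enrichment ratio, all made by the authors. They were used only to rank or filter peaks within 1 list.

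The windows were intersected with the peaks (chromosomes 1 to 19, X and Y), at least 1 bp counting as overlap, and covered length was the union clipped to the windows. Python 3.11.15, numpy 2.4.6, scipy 1.17.1 and matplotlib 3.10.9 were used, and the overlap code was tested on simulated peaks. Regions were named by a rule: the widest and strongest wild-type H3K4me3 and polymerase peak of each window, lists with at most 5 peaks in a window, and the strongest knockout peak without wild-type overlap. Alternatives were a stricter q, other overlaps, wider windows, merged peaks and bins. The windows, lists and rules were chosen with earlier results of these data known. Promoter sequences came from RefSeq (GRCm38.p6). No mm9 sequence or annotation was used here, so peaks were given no genes. Some results in the Hoxa window are not reported here.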

Additional observations from a re-analysis of the deposited data

Results flagged for a closer look

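The length of the 4 Hox windows inside H3K4me3 peaks moved in opposite directions in the knockouts, which is why it is listed here. It was 1.50 times the wild-type length in Taf5l-KO and 0.894 times in Taf6l-KO. As a share of each list's covered length the windows made up 0.134% in wild type, 0.211% in Taf5l-KO and 0.142% in Taf6l-KO, and the Taf6l-KO ratio over all chromosomes was 0.842, so relative to its list Taf6l-KO was not below wild type. Each value rests on 1 library per genotype against the same wild-type library, and the difference between the knockouts was not tested. Restricted to stronger peaks (−log10 q at least 5), the Taf6l-KO ratio was 1.05, and the ratio over all chromosomes at that cut was not calculated.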

How the results depend on the processing

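Recalculated main values stayed close to the reported ones in 55 cases, moved in 15 and turned direction in 2. The Taf6l-KO to wild-type length ratio turned for H3K4me3 from 0.894 to 1.05 at −log10 q of at least 5, and for RNAP-ser2 from 0.893 to 1.09 when 1000 bp bins were counted. The cause was not tested. The Taf5l-KO H3K4me3 ratio stayed between 1.50 and 1.78. Under that stricter q the share of wild-type Hox H3K4me3 peaks kept was 83.3% in Taf5l-KO and 94.4% in Taf6l-KO (18 peaks), and their overlap with RNAP, RNAP-ser5 and RNAP-ser2 was 0%, because no wild-type polymerase peak in the windows passed. For peaks at or above the list's median fold enrichment, 100% of H3K4me3 peaks were kept in both knockouts, and 0% of RNAP and of RNAP-ser2 peaks in both, from 1 peak each. With a knockout peak within 1000 bp counted, 80% of wild-type RNAP peaks were kept in Taf5l-KO and 80% in Taf6l-KO. With 50% of the peak covered, 0% of RNAP-ser5 peaks were kept in Taf5l-KO and in Taf6l-KO, and 0% of H3K4me3 peaks were overlapped by RNAP. Under this rule and the 1000 bp rule, shares over the whole lists were not calculated. Each tagged line alone had 0 TAF5L-FB or TAF6L-FB peaks in the windows, so leaving out 1 line could not change the count. Of the peak numbers and covered lengths over the 4 windows together, by antibody and genotype, and the tagged-line counts, 58 were labelled close and 24 moved. None was recalculated by cluster. The tagged-line counts, which could not change, are among the 58. The H3K9ac overlap of 0%, which neither a stricter q nor 50% coverage could raise, is among the 55.

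No paired analysis was possible because each antibody and genotype had 1 library. Polymerase ratios and kept shares at the stricter q, and all H3K9ac ratios, gave no value, since the wild-type windows then held no peak. What depth limits was not ranked. The windows held at most 17 polymerase peaks per list, so single peaks move these shares.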

Other observations

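In the 980 kb of flanks, 1 window length on each side of each Hox window, H3K4me3 covered 1.57% in wild type, 2.13% in Taf5l-KO and 1.62% in Taf6l-KO, below the 9.60%, 14.4% and 8.58% inside the windows. RNAP covered 0.234% of the wild-type flanks. H3K9ac, Myc and Oct4 had 0 peaks in the flanks in every genotype. One TAF6L-FB peak of 0.481 kb, in line 2, lay in a flank, and the other tagged lines and the BirA control had 0 there.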
